A study of Danio rerio with 16 samples.

Results

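The p53 response genes described here are mdm2, cdkn1a, ccng1, bbc3 and phlda3. They are 5 of the 21301 genes in the deposited matrix, and they were chosen by name, as known targets of the transcription factor p53, not by a threshold on their values. Their transcripts were counted in 130661 single cells of zebrafish tails, taken at the 10 to 12 somite stage, in 4 groups of 4 libraries. WT embryos were wild type, with no treatment named. The DMH1 group had BMP signalling inhibited with DMH1, a small molecule that blocks BMP receptor kinases. The SU5402 group had FGF signalling inhibited with SU5402, a small molecule that blocks FGF receptor kinases. The notum-1 group had Wnt signalling inhibited through Notum, a secreted enzyme that inactivates Wnt proteins. Each library pooled 10 tails, or 12 for notum-1, and all were dissociated with papain for 15 minutes at 29 °C. The strain, the doses and durations of treatment and the route by which notum-1 was given are not stated in the sources used here.

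The protein p53 is kept scarce by Mdm2, which marks it for breakdown, and it builds up after DNA damage and other kinds of cell stress. It then switches on genes that halt the cell cycle, repair damage or bring about apoptosis. Because mdm2 is itself a target, its transcript is part of a negative feedback loop. The gene cdkn1a encodes p21, an inhibitor of cyclin-dependent kinases, and ccng1 encodes cyclin G1. The gene bbc3 encodes Puma, a BH3-only protein that triggers apoptosis, and phlda3 encodes a repressor of the kinase Akt. These roles were mostly worked out in mammalian cells.

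Library totals were 26415698 to 50512590 UMIs for WT, 46922073 to 76488460 for DMH1, 12398958 to 70365340 for SU5402 and 33086139 to 62492196 for notum-1. A UMI is the molecular tag of 1 captured transcript. Other stress measures also differed between the groups. The median percent of mitochondrial UMIs per cell was 1.52 to 2.38 in WT libraries and 3.56 to 4.88 under DMH1. It was 3.62 to 6.55 under SU5402 and 1.16 to 1.45 under notum-1. The highest percent in any cell of a library was 4.53 to 4.998 in WT and 6.96 to 6.999 under DMH1. That highest percent was 6.99 to 9.99 under SU5402 and 2.98 to 2.998 under notum-1. The medians were taken within these ends, so they are not a measure of stress alone. How far the ends set the medians was not tested. Of 10 heat-shock genes, 9 were lower under DMH1 and 9 under SU5402, and of 9 oxygen-response genes tested, 6 were higher in each. Levels are given in CPM, the UMIs of a gene scaled to a total of 1000000 UMIs per library. The summed level of the 4 hsp70 copies was 967 to 1738 CPM in WT and 417 to 1334 under notum-1, but 15.5 to 40.6 under DMH1 and 17.8 to 34.3 under SU5402. The glycolysis gene eno1a was at 1.00 to 1.56 in WT and 0.752 to 1.60 under notum-1, but at 21.3 to 50.9 under DMH1 and 33.0 to 59.0 under SU5402. These measures move with the DMH1 and SU5402 results below, and their part in those results was not tested. Of all barcode sequences, 2107 occurred in more than 1 library, and any pair of libraries had at most 48 in common.

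Over all cells, 4 of the 5 members were lower under DMH1 and in SU5402 than in WT, and bbc3 was the exception. The feedback gene mdm2 fell 2.53-fold in DMH1 and 2.21-fold in SU5402, and cdkn1a fell 7.37-fold and 4.92-fold. In notum-1, 2 members passed the test, mdm2 at 1.85-fold lower and bbc3 at 1.75-fold lower. No member was called higher. Over all 16399 genes tested, the shares called lower and higher were 20.3% and 22.1% under DMH1, 19.6% and 23.0% under SU5402, and 17.1% and 20.9% under notum-1. The test was edgeR's quasi-likelihood F test on UMIs summed per library, with Benjamini-Hochberg adjustment over all genes and a threshold of 0.05. All 3 comparisons share the same 4 WT libraries. In such sums, fewer expressing cells and less RNA per cell cannot be told apart.

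The level of mdm2 in the WT libraries DJ1, DJ2, MG1 and MG2 was 56.0, 55.2, 53.2 and 50.7 CPM. In the DMH1 libraries DMH0, DMH2, DMH3 and DMH4 it was 23.3, 21.1, 25.3 and 24.3. All 4 lay far below WT and close to each other. In SU1 to SU4 of the SU5402 group it was 28.7, 30.6, 35.7 and 18.7, and in the notum-1 libraries WNT_DJ1, WNT_DJ2, WNT_MG1 and WNT_MG2 it was 17.6, 28.6, 16.1 and 26.2. These 2 groups were more spread, but no treated library reached WT. The same separation below WT was found for 19.8% of all genes under DMH1, 12.6% under SU5402 and 36.3% under notum-1. The log2 fold change of mdm2 was -1.34 under DMH1 (SE 0.189, edgeR adjusted p 5.35e-05), -1.15 under SU5402 (SE 0.189, adjusted p 0.000167) and -0.89 under notum-1 (SE 0.188, adjusted p 0.00197).

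The cell cycle inhibitor gene cdkn1a was scarce and had the largest fold differences of the 5 under DMH1 and SU5402. Its WT level was 5.81, 6.51, 8.01 and 6.28 CPM, in the library order above. It was 0.923, 0.618, 1.16 and 1.27 under DMH1, and 0.807, 1.87, 2.69 and 0.668 under SU5402. Both inhibitor groups were well below WT. In notum-1 it was 3.39, 5.74, 2.81 and 2.99, so WNT_DJ2 was just under the lowest WT library and the others were lower. On the log2 scale the change was -2.88 under DMH1 (SE 0.390, edgeR adjusted p 3.62e-05) and -2.30 under SU5402 (SE 0.387, adjusted p 0.000196). In notum-1 it was -0.43 (SE 0.361, adjusted p 0.365), which did not pass. The values rest on 1039 UMIs in WT, 275 under DMH1, 271 under SU5402 and 744 under notum-1.

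The cyclin G1 gene ccng1 was at 588, 597, 534 and 523 CPM in WT. It was at 322, 377, 391 and 393 under DMH1, and at 390, 465, 474 and 315 under SU5402. Neither group overlapped WT. In notum-1 it was at 244, 516, 248 and 256, so WNT_DJ2 stood near WT while the other 3 had the lowest levels of the 16 libraries. Its log2 fold change was -0.74 under DMH1 (SE 0.219, edgeR adjusted p 0.0127), -0.68 under SU5402 (SE 0.218, adjusted p 0.0197) and -0.42 under notum-1 (SE 0.218, adjusted p 0.139). Without WNT_DJ2 the notum-1 value was -0.78 and passed (adjusted p 0.000663). The DMH1 call was lost among cells with at most 3% mitochondrial UMIs and at least 1500 genes (-0.50, adjusted p 0.103), and the SU5402 call was lost without TMM factors (-0.45, adjusted p 0.0852).

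The apoptosis gene bbc3 did not follow the others. Its WT level was 2.35, 2.12, 1.74 and 2.04 CPM. It was 2.83, 1.85, 3.57 and 2.73 under DMH1, and 4.60, 2.97, 5.35 and 2.25 under SU5402. In each of these groups 3 libraries were above every WT library and 1 lay within the WT range. In notum-1 it was 0.944, 0.713, 0.749 and 1.21, all below WT. Fitted log2 fold changes were 0.27 under DMH1 (SE 0.267, edgeR adjusted p 0.432), 0.66 under SU5402 (SE 0.270, adjusted p 0.0585) and -0.80 under notum-1 (SE 0.280, adjusted p 0.0327). The notum-1 call was kept in 10 of 16 fits that each left out 1 library, and was lost without DJ1, DJ2, MG2, WNT_DJ1, WNT_DJ2 or WNT_MG1. The SU5402 difference passed without SU2 (0.77, adjusted p 0.0388) or without SU4 (0.84, adjusted p 0.0139). The counts were low, with 318 bbc3 UMIs in WT, 753 under DMH1, 623 under SU5402 and 172 under notum-1.

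The Akt repressor gene phlda3 was at 26.7, 20.4, 17.3 and 14.4 CPM in WT. It was at 6.09, 4.86, 8.38 and 6.08 under DMH1, and at 5.32, 7.14, 13.9 and 4.22 under SU5402. All 8 of these libraries were below WT, SU3 only narrowly. In notum-1 it was at 6.30, 15.8, 4.43 and 4.47, so WNT_DJ2 was inside the WT range and the other 3 were below it. The log2 fold change was -1.77 under DMH1 (SE 0.440, edgeR adjusted p 0.00476), -1.54 under SU5402 (SE 0.440, adjusted p 0.0105) and -0.92 under notum-1 (SE 0.432, adjusted p 0.105). Without WNT_DJ2 the notum-1 value was -1.56 (adjusted p 0.00637), and without the cells of the class PZ 3, described below, it was -1.09 (adjusted p 0.027). WNT_DJ2 had the highest median depth of the 16 libraries, 9972 UMIs per cell, and 3.02% of its cells were PZ 3. The part of either in its levels was not tested.

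**Figure D1:**
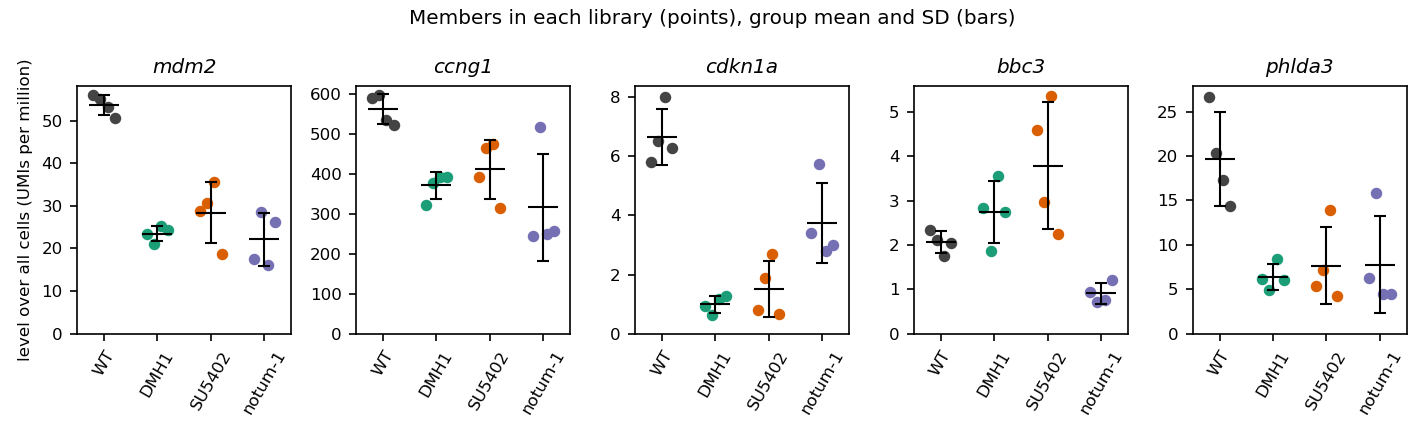
Level of each member in CPM over all cells of a library (points), by group, with the group mean and SD, on linear axes. For mdm2, ccng1 and cdkn1a every treated library lies below the WT libraries, while for bbc3 only the notum-1 libraries do.

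The scaling of the libraries moved the values most in notum-1. With library totals in place of TMM factors, the DMH1 median over all genes moved from 0.06 to 0.20 on the log2 scale, the SU5402 median from 0.11 to 0.34 and the notum-1 median from 0.03 to -0.37. For DMH1 the calls went from 3626 higher and 3327 lower to 4655 and 2323. For SU5402 they went from 3773 and 3214 to 5269 and 2006, and for notum-1 from 3430 and 2809 to 1418 and 6113. Relative to these medians, the unscaled log2 fold change of mdm2 was -1.40 under DMH1, -1.26 under SU5402 and -0.92 under notum-1, and that of bbc3 was 0.21, 0.53 and -0.83. Each member kept its sign in each comparison under both scalings.

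Among regulators of p53, 10 genes were tested. In DMH1, 5 were higher and 1 lower, in SU5402 7 were higher and 2 lower, and in notum-1 none passed edgeR's test. The median log2 fold change of the list was 0.27, 0.53 and 0.03. The damage-sensing kinase gene atm rose by 0.85 on the log2 scale in DMH1 and 1.02 under SU5402. The checkpoint kinase gene chek1 fell by 0.64 under DMH1 and 0.71 under SU5402.

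Other p53 targets moved in both directions. Of 23 tested, 6 were higher and 6 lower under DMH1, 6 and 6 under SU5402, and 3 and 7 under notum-1. Their median log2 fold change was -0.01, -0.07 and -0.31, beside 0.06, 0.11 and 0.03 over all genes. Without TMM factors the notum-1 count was 1 higher and 14 lower. Over all genes, 22.1% were called higher and 20.3% lower under DMH1. Those shares were 23.0% and 19.6% under SU5402, and 20.9% and 17.1% under notum-1. They are the background for the counts of every list here. The ribosomal protein relative rps27l went from 627 ± 43.3 CPM in WT (SD, n = 4) to 280 ± 5.17 under DMH1 and 314 ± 121 under SU5402. The sestrin gene sesn2 fell in all 3 comparisons, by 1.27 under DMH1, 1.21 under SU5402 and 0.76 under notum-1 on the log2 scale. pmaip1, which encodes the BH3-only protein Noxa, fell by 0.94 under SU5402 and 0.70 under notum-1. The DNA repair gene xpc rose by 1.23 under DMH1, and ddb2, whose product recognises damaged DNA, rose by 1.48 under notum-1. In notum-1 the caspase gene casp8 fell by 1.03.

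In the apoptosis machinery, 17 genes were tested. In DMH1 0 were higher and 6 lower, in SU5402 1 was higher and 6 lower, and in notum-1 0 were higher and 4 lower, with list medians of -0.24, -0.29 and -0.21 on the log2 scale. The BH3-only gene bida fell by 0.87, 1.03 and 0.50. apaf1, whose product forms the apoptosome, fell by 0.87 under DMH1 and 0.99 under notum-1. The anti-apoptotic gene mcl1b was the 1 that rose, by 1.33 under SU5402. The 6 called lower under DMH1 were birc5a, bida, diabloa, diablob, apaf1 and casp3b. Those called lower under SU5402 included bida, birc5a, diabloa, diablob and bcl2l1. Of these, birc5a and bcl2l1 are also anti-apoptotic genes, so genes of both roles fell.

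Relatives of the members moved in both directions. Of 9 genes, 1 was higher and 3 lower under DMH1, 2 and 4 under SU5402, and 1 and 3 under notum-1, with medians of -0.26, -0.91 and -0.25. The ccng1 paralogue ccng2 rose by 1.29 on the log2 scale in both DMH1 and SU5402, from 25.3 ± 6.02 CPM in WT (SD, n = 4) to 68.1 ± 6.43 and 72.4 ± 5.79. cdkn1ca, the gene of the related inhibitor p57, fell by 0.90 under DMH1 and 1.13 under SU5402. phlda2 fell by 0.93 and 1.35.

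Among the other stress lists, the heat-shock genes had median log2 fold changes of -2.41 under DMH1, -1.86 under SU5402 and -0.02 under notum-1. In notum-1 2 of the 10 were higher and 2 lower. The oxygen-response genes had medians of 2.45, 2.58 and -0.27, with 1 of 9 lower in each comparison. Of 12 genes of the unfolded protein and integrated stress response, 2 were higher and 4 lower under DMH1, 1 and 4 under SU5402, and 2 and 2 under notum-1. Of 11 immediate early genes, which dissociation can induce, 2 were higher and 2 lower under DMH1, 1 and 5 under SU5402, and 0 and 3 under notum-1. Of 15 cell cycle genes, 2 were higher and 8 lower under DMH1, 4 and 10 under SU5402, and 0 and 1 under notum-1. The proliferation marker mki67 rose by 0.70 under DMH1, while mcm3, a replication helicase gene, fell by 1.33 under DMH1 and 1.04 under SU5402.

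Within cell classes, the falls of mdm2, ccng1, cdkn1a and phlda3 recurred across the tail. The authors assigned every cell to 1 of 25 classes, and 18 of these had at least 30 cells in every library. In those 18, mdm2 was called lower in 15 classes under DMH1, 17 under SU5402 and 13 under notum-1, and its log2 fold change was negative in all 18 in each comparison. Counted over members and classes that passed the filter on low counts, 53 of 65 pairs (81.5%) were lower under DMH1, 51 (78.5%) under SU5402 and 23 (35.4%) under notum-1. Over all genes the shares were 18.6%, 18.7% and 12.5%. Pairs called higher numbered 1, 1 and 0, where all genes gave 18.5%, 19.8% and 15.6%. The p-values are edgeR's, adjusted over the genes of each class. A gene of few UMIs, such as cdkn1a, bbc3 or, in some classes, phlda3, can pass the filter through the group where it is high. These counts are therefore a description of the pairs tested.

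The fitted mdm2 values covered a range between classes. Its log2 fold change ran from -2.24 to -0.45 under DMH1, from -1.53 to -0.51 under SU5402 and from -1.72 to -0.06 under notum-1, with medians of -1.23, -0.98 and -0.85. The strongest fall in each was in the lateral plate mesoderm class marked by lmo2, a gene of blood and endothelial progenitors. There mdm2 stood at 128, 125, 121 and 150 CPM in the WT libraries and at 26.2, 29.6, 30.04 and 28.9 under DMH1. It stood at 49.4, 75.2, 61.1 and 29.6 under SU5402 and at 30.1, 30.4, 19.3 and 42.4 under notum-1. No treated library of that class overlapped WT. The weakest fall under SU5402 and under notum-1 was in epidermis 1. Other epidermal classes did pass, epidermis 3 under DMH1, epidermis 3 and 4 under SU5402 and epidermis 4 under notum-1. In epidermis 1, mdm2 changed by -0.52 under DMH1 (adjusted p 0.234), -0.51 under SU5402 (adjusted p 0.255) and -0.06 under notum-1 (adjusted p 0.914), none past the threshold. The notum-1 libraries of that class were spread from 9.66 to 44.3 CPM, on both sides of the WT range of 26.6 to 38.3. That notum-1 value moved with the library left out, as given below.

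For ccng1, 13 of 18 classes were lower under DMH1, 13 under SU5402 and 5 under notum-1. The 5 under notum-1 were PSM, PZ 1, PZ 2, intermediate mesoderm and the lmo2 class. In DMH1 and SU5402 the classes that did not pass were anterior notochord, differentiated neuronal and epidermis 1, 3 and 4. The gene cdkn1a could be tested in 10 classes and was lower in 10 under DMH1, 9 under SU5402 and 1 under notum-1. A class can pass the filter on low counts through the groups where cdkn1a is high. These counts therefore only describe the classes tested. In PZ 1, cdkn1a was at 3.85, 3.13, 3.82 and 2.33 CPM in WT and at 0, 0.390, 0.108 and 0.103 under DMH1. Under notum-1 it was at 2.84, 4.40, 1.80 and 2.16. DMH1 thus lay below WT in that class, and notum-1 overlapped it. For phlda3, 14 of 15 tested classes were lower under DMH1, 12 under SU5402 and 4 under notum-1. Its strongest change in DMH1 was -3.26 in PZ 2, from 4.92 to 9.24 CPM in WT to 0.367 to 1.13, with 8 UMIs under DMH1. Such a class can likewise pass the filter through WT, so the phlda3 counts and this value only describe the classes tested.

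bbc3 passed the filter on low counts in 4 of the 18 classes. In anterior notochord it was at 5.28, 6.79, 0 and 1.30 CPM in WT, at 18.9, 9.40, 8.22 and 11.1 under DMH1, and at 25.8, 13.0, 12.3 and 13.7 under SU5402. Both inhibitor groups lay above WT. This is the 1 pair counted above as called higher under DMH1 and under SU5402. WT held only 15 bbc3 UMIs there, and the gene passed the filter through the groups where it was high. These calls are therefore a description, and no p-value is given for them. In notum-1 the levels were 11.1, 3.53, 3.90 and 4.68. In the lmo2 class bbc3 was at 10.9, 7.15, 8.04 and 9.56 in WT and at 4.70, 0.857, 4.76 and 3.49 under DMH1, all below WT.

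**Figure D2:**
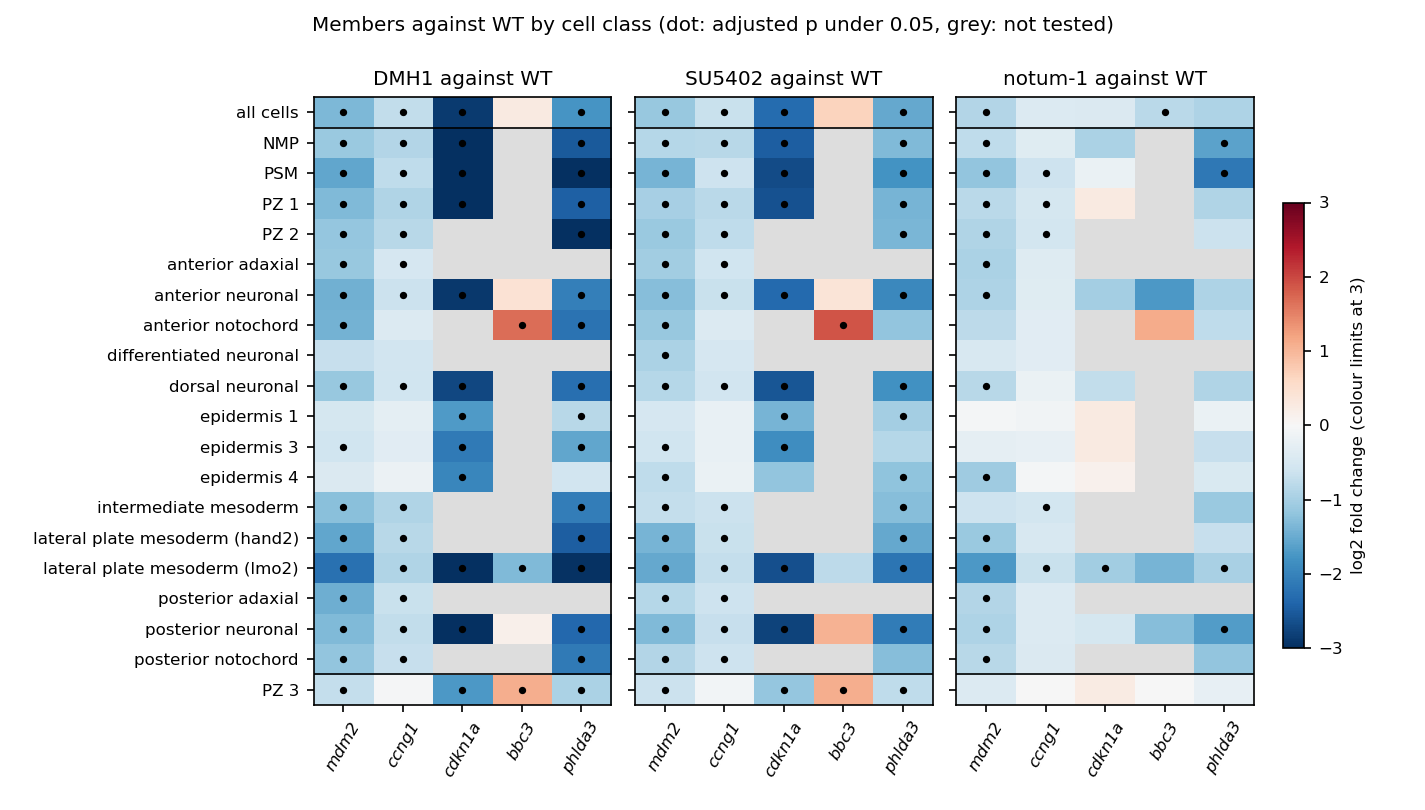
Log2 fold change against WT of each member (columns, for each treatment) in each class (rows), as colour limited to 3 either way; a dot marks an adjusted p under 0.05 and grey a pair that was not tested. The last row is PZ 3, fitted without the SU5402 library of 12 PZ 3 cells. The tested pairs of mdm2, ccng1, cdkn1a and phlda3 are mostly blue in DMH1 and SU5402, cdkn1a is grey in 8 of the 18 classes, and notum-1 has few dots outside mdm2.

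Class sizes also changed between libraries, so each class was next given equal weight. Averaged over the 18 classes, log2(CPM + 1) was lower than WT in all 4 libraries for 4 members in DMH1, 4 under SU5402 and 5 under notum-1. In each of these 13 cases a two-sided exact permutation test gave p = 0.0286, the smallest that 4 against 4 libraries allow. The same separation held for 22.0% of all genes under DMH1, 13.7% under SU5402 and 38.6% under notum-1. The differences for mdm2 were -1.14, -0.88 and -1.25, and those for cdkn1a were -1.84, -1.58 and -0.71. The mean for bbc3 differed by 0.11 under DMH1 (exact p = 0.457) and 0.38 under SU5402 (exact p = 0.0857). When the UMIs of each class were instead scaled to the same total and then summed, the SU5402 difference of bbc3 was 0.72 (exact p = 0.0286). These means use no TMM factors, and notum-1 in particular is set lower by that choice, as given above.

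In WT, the members were highest in few classes. PZ 3, an abbreviation left unexplained in the cell table, led for mdm2, ccng1, bbc3 and phlda3. Its mdm2 level was 208 ± 18.2 CPM (SD, n = 4), followed by the mucus producing cells at 154 ± 10.5 and the lmo2 class at 131 ± 12.8. These last 2 lie within each other's spread, taken as the sum of their SDs. For ccng1, PZ 3 stood at 1534 ± 199.8 and the cells of Kupffer's vesicle, the ciliated organ of left-right asymmetry, at 948 ± 116. For phlda3, PZ 3 stood at 215 ± 17.3, and the next class of more than 100 WT cells, EVL, at 69.7 ± 54.6. For bbc3 the levels were 16.0 ± 4.4 in PZ 3 and 8.9 ± 1.7 in the lmo2 class. For cdkn1a, Kupffer's vesicle was at 34.9 ± 47.4 from only 7 UMIs, PZ 3 at 28.2 ± 11.9 and the lmo2 class at 19.4 ± 3.3, which overlap. The lowest pooled levels were 26.7 for mdm2 in anterior notochord, 454 for ccng1 in PSM and 0.414 for bbc3 in PZ 1, leaving out polster with 42 cells and, for bbc3, Kupffer's vesicle with 0 UMIs. No phlda3 UMI was found in the mucus producing cells of WT.

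**Figure D3:**
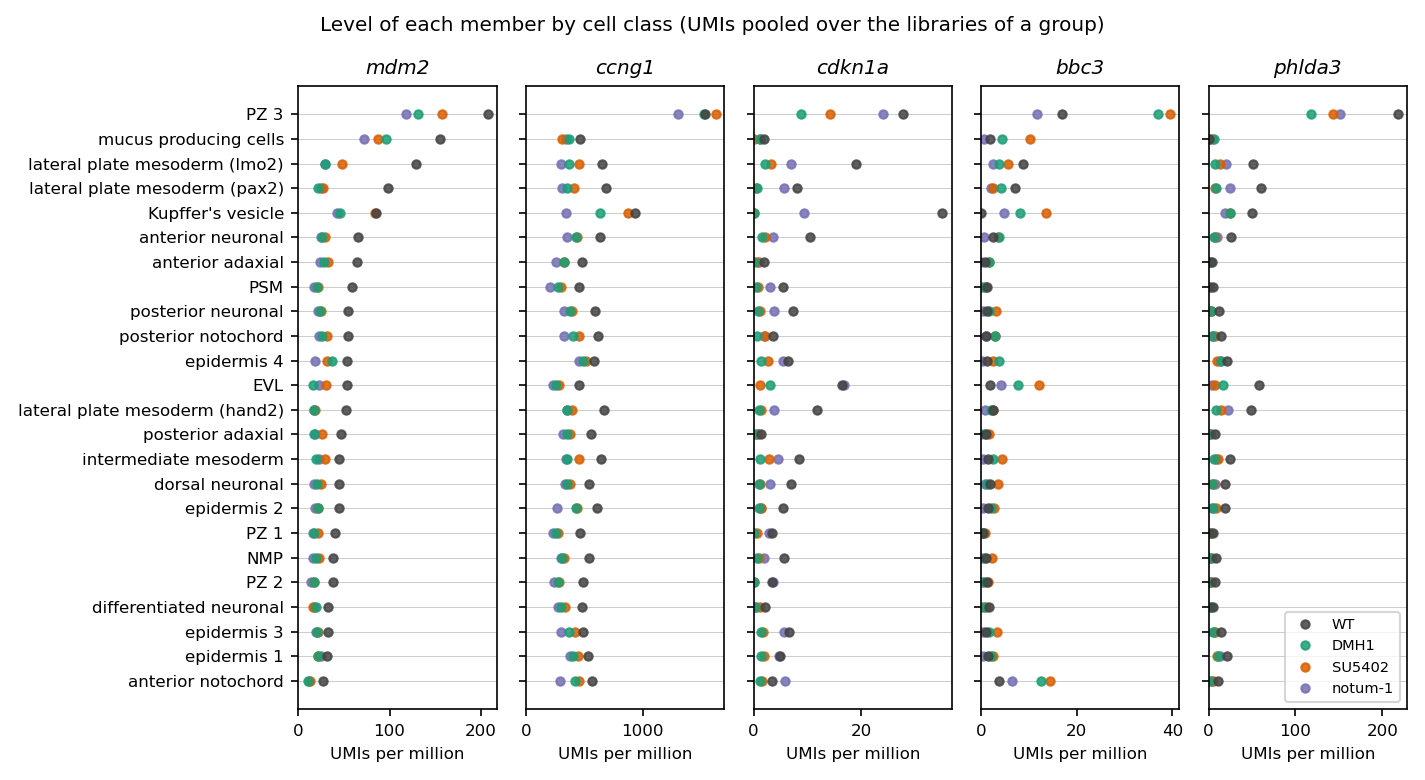
Level of each member in each class in CPM, by group, with classes ordered by the WT level of mdm2 and polster left out. PZ 3 has the highest level of mdm2, ccng1, bbc3 and phlda3 in WT.

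PZ 3 stood out within every library. It holds 2490 cells, 0.258% to 3.52% of a library. All 5 members were higher in PZ 3 than in the other cells of the same library in 16 of 16 libraries. The median ratio was 5.70 for mdm2 (range 3.68 to 8.65), 3.93 for ccng1 (2.61 to 5.87) and 7.84 for cdkn1a (2.09 to 47.9). It was 14.8 for bbc3 (6.16 to 70.4) and 24.7 for phlda3 (9.99 to 68.1). The highest value of each of the 5 comes from SU1, where PZ 3 has 12 cells. Between 13.6% and 42.1% of a library's phlda3 UMIs were in PZ 3. Clusters are made from the same genes, so these ratios are a description with no test.

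**Figure D4:**
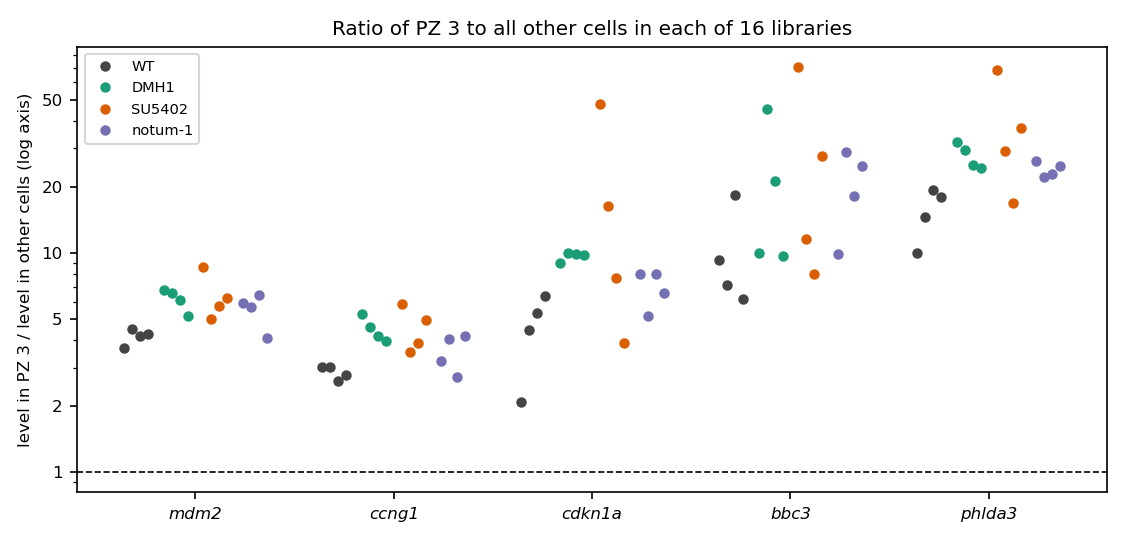
Ratio of the level in PZ 3 to that in all other cells of the same library, on a log axis, for the members, with 1 point per library coloured by group. All points lie above 1, and those of phlda3 run from 9.99 to 68.1.

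Some other genes of the pathway also ranked high in the same class. Among 5745 genes with at least 10 CPM in PZ 3, ranked by their mean log2 ratio of PZ 3 to other cells over the 15 libraries with at least 30 PZ 3 cells, phlda3 was first, at 3.64. mdm2 had rank 11, bbc3 12, ccng1 15 and cdkn1a 23. The sestrin gene sesn3 had rank 5, casp8 6, foxo3b 9 and rps27l 14. Of the 26 other p53 targets in the matrix, 8 were higher in PZ 3 in all 15 libraries and 4 lower in all 15. For all 21288 genes with a UMI these counts were 190 and 1425. The median log2 ratio was -0.005 for the 26 and -0.026 for all genes. At least 10 CPM in PZ 3 was reached by 17 of the 26 and by 5745 of the 21288, so the 2 sets differ in level. Of 10 regulators of p53, 0 were higher and 0 lower in all 15 libraries. Of 20 genes of the apoptosis machinery, 0 were higher in all 15 and 5 were lower. The mesodermal genes msgn1 and meox1 were higher in PZ 3 than in other cells in all 15 libraries, at 2546 against 1380 and 770 against 306 CPM. Pooled over libraries, msgn1 was at 2800 in PZ 3, below PZ 1 at 5033 and PZ 2 at 4400. Of the other genes used to mark PSM, tbx16 at 684 and her7 at 294 were also below both classes. The third, tbx6, was at 219 in PZ 3, above PZ 1 at 167 and PZ 2 at 143. For meox1, the PZ 3 mean of 770 stood beside pooled levels of 448 in PZ 1 and 421 in PZ 2. Of the other genes used to mark somite cells, myf5 went the other way, at 705 beside 980 and 893. The other somite markers went with meox1, tcf15 at 382 beside 306 and 362, and aldh1a2 at 73.1 beside 45.0 and 49.8. The neural gene sox2 was at 71.6 in PZ 3, above PZ 1 at 12.3 and PZ 2 at 9.83. It was higher in PZ 3 than in all other cells in 6 of 15 libraries.

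The cells of PZ 3 were not shallower or richer in mitochondrial RNA as a class. Their median UMI count was below that of the other cells in 8 of 15 libraries and their median mitochondrial percent in 9 of 15. The authors' cell cycle calls placed 19.5% to 35.3% of PZ 3 cells in S phase against 37.3% to 42.6% of other cells, lower in 15 of 15 libraries. The G2M share was 31.3% to 43.3% against 28.2% to 31.4%, higher in 15 of 15. How far those calls read free RNA was not tested.

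Within PZ 3, bbc3 was called higher and mdm2, cdkn1a and phlda3 lower under DMH1 and SU5402. The fit used 15 libraries, without SU1, and 6910 genes. bbc3 was higher under DMH1, by 1.09 on the log2 scale (SE 0.30, edgeR adjusted p 0.00518), and in SU5402, by 1.08 (SE 0.331, adjusted p 0.011), and did not pass in notum-1 (adjusted p 0.998), where 13.8% of all genes were called higher. Its levels were 17.7, 13.6, 21.3 and 11.4 CPM in WT, 24.6, 55.8, 49.0 and 22.5 under DMH1, 31.2, 34.3 and 47.6 in SU2 to SU4, and 8.08, 11.0, 11.8 and 22.9 under notum-1. All DMH1 and SU5402 libraries lay above WT. The WT libraries held 6 to 26 bbc3 UMIs in PZ 3. SU1, left out, had 279 from 8 UMIs. Of all genes in PZ 3, 17.3% were called higher under DMH1 and 17.5% under SU5402. The DMH1 call held in 15 of 15 fits that left out 1 library and the SU5402 call in 14 of 15, being lost without SU4 (0.90, adjusted p 0.0549).

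Of the other members, 3 were lower in PZ 3 under DMH1 and SU5402. There mdm2 was lower by 0.72 under DMH1 (adjusted p 0.000752) and 0.64 under SU5402 (adjusted p 0.00579), with levels of 192, 234, 203 and 204 in WT and 144, 130, 135 and 116 under DMH1. cdkn1a fell by 1.71 and 1.15, and phlda3 by 0.94 (adjusted p 0.000389) and 0.75 (adjusted p 0.00797). The cdkn1a values rest on 12 to 46 UMIs per WT library, 3 to 19 per DMH1 library and 2 in SU4. This gene can pass the filter on low counts through the groups where it is high. Its calls in PZ 3 are therefore a description, with no p-value given. In SU2 to SU4, mdm2 was at 147, 175 and 110 CPM and phlda3 at 165, 151 and 111, all below WT. For cdkn1a these were 26.7, 16.7 and 2.5, and only SU4 was below the WT range of 11.8 to 37.7. SU1, left out, had 244 for mdm2 and 314 for phlda3, above every WT library. Its cdkn1a level was 34.8, within the WT range, from 1 UMI. Of all genes in PZ 3, 18.8% were called lower under DMH1 and 18.3% under SU5402. Without SU4, the SU5402 values of mdm2, cdkn1a and phlda3 were -0.46, -0.70 and -0.60 and none passed, and that of cdkn1a was also lost without MG1 or MG2. ccng1 did not pass in any comparison, with log2 fold changes of -0.04, -0.09 and -0.02, and its levels in PZ 3 overlapped WT in DMH1. No member was called in notum-1, where 10.4% of all genes were called lower. Without WNT_DJ2, mdm2 and phlda3 passed there at -0.56 and -0.63, and without TMM factors at -0.90 and -0.73. Whether a change in PZ 3 differs from that in other classes was not tested.

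The treatment effects were also compared between tissues, as log2(CPM + 1) in the posterior, anterior and dorsal neuronal classes, with UMIs summed, minus that in mesodermal classes (PZ 1, PZ 2, PSM and both adaxial classes) or epidermal classes (epidermis 1 to 4). Against epidermis, all 4 DMH1 libraries lay below every WT library for 4 of 5 members, with differences of -0.60 for mdm2, -0.26 for ccng1, -0.74 for cdkn1a and -0.99 for phlda3 (exact permutation p = 0.0286 each, unadjusted). Among all genes 5.66% separated that way. In SU5402 1 member did so, ccng1 at -0.26, beside 2.88% of all genes, and in notum-1 2 did, ccng1 at -0.19 and phlda3 at -0.68, beside 5.52%. Against mesoderm no member separated downward in DMH1, where 5.27% of all genes did, or in SU5402, where 3.66% did. In notum-1, cdkn1a at -0.63 and bbc3 at -0.20 lay below WT, as did 6.28% of all genes, and ccng1 at 0.19 lay above it, as did 6.35%. The bbc3 levels behind its value were low, at 1.37 to 2.21 CPM in neuronal classes of WT and 0.401 to 0.654 under notum-1. In mesodermal classes they were 0.687 to 1.01 and 0.102 to 0.304. Under DMH1, cdkn1a was likewise low, at 0.416 to 1.51 CPM in neuronal classes and 0.830 to 1.74 in epidermal classes. At such levels the 1 added to each CPM shapes the difference. No tissue order is therefore read from bbc3, or from cdkn1a under DMH1. In all, 30 contrasts were computed, and 10 reached the smallest p the design allows. None passed 0.05 after Benjamini-Hochberg adjustment over the 30.

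Single cells were then asked for several members at once. Each cell was thinned to 2000 UMIs, which left out 3140 cells and kept 127521. In the WT libraries 11.2%, 10.1%, 9.23% and 8.78% of cells held 2 or more members. The shares were 3.38%, 3.21%, 4.14% and 3.79% under DMH1, 3.73%, 4.29%, 6.82% and 2.67% under SU5402, and 2.43%, 6.71%, 1.83% and 2.59% under notum-1. All treated libraries were below WT, and SU3 and WNT_DJ2 were the nearest to it. Combined as if independent, the shares of the single members give 7.97% to 10.3% in WT and 2.74% to 3.43% under DMH1. They give 2.26% to 5.48% under SU5402 and 1.71% to 5.54% under notum-1, again all below WT. The fall in cells with 2 or more members is therefore not separate from that of the single members. The shares with 3 or more members were 0.935% ± 0.128 in WT, 0.358% ± 0.104 under DMH1, 0.381% ± 0.315 under SU5402 and 0.341% ± 0.376 under notum-1 (SD, n = 4). SU3 at 0.838% and WNT_DJ2 at 0.901% lay within the WT range of 0.787% to 1.05%. Without SU3 the SU5402 mean was 0.229%, and without WNT_DJ2 the notum-1 mean was 0.155%. These shares depend on ccng1, which was found in 61.9% to 65.3% of WT cells at this depth. No class is known to lack the members, so a background share from free RNA could not be measured.

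Cells with 3 or more members were concentrated in PZ 3. There were 681 such cells, of which 263 (38.6%) were in PZ 3, a class with 1.94% of the thinned cells. In PZ 3 10.6% of cells held 3 or more, in Kupffer's vesicle 2.56% (5 of 195 cells) and in the lmo2 class 2.00% (94 of 4703). In PZ 1 it was 0.0623%. Only 46 cells held 4 or more members, 21 of them in PZ 3, and 1 cell held all 5. The share of PZ 3 cells with 3 or more members was compared with the share that the product of the members' own shares gives. The ratio had a median of 0.965 in WT (range 0.780 to 1.08), 1.41 under DMH1 (1.32 to 1.85), 1.39 under SU5402 (0.991 to 1.66) and 1.16 under notum-1 (0.401 to 1.78). In the other classes, with the product taken within each class, the medians were 2.18 in WT (1.90 to 2.79), 5.18 under DMH1 (3.45 to 5.68), 3.68 under SU5402 (1.14 to 4.98) and 4.51 under notum-1 (3.95 to 4.92). The differences between groups in this ratio were not tested.

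**Figure D5:**
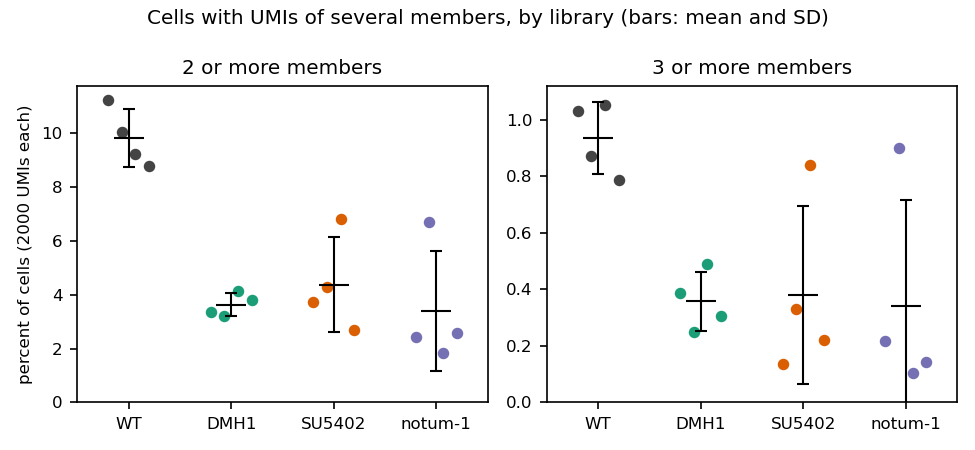
Percent of cells with several members at 2000 UMIs per cell, by library and group. The WT libraries are the highest for 2 or more members, between 8.78% and 11.2%.

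The genes most like the members across classes included rps27l and sesn3, both from the list of other p53 targets. Likeness was the Pearson correlation, over the classes of a library, between a gene and the summed members, most of whose UMIs are ccng1, averaged over 16 libraries, among 6226 genes of at least 10 CPM. Among the 5 highest were rps27l at a mean r of 0.74, sesn3 at 0.68 and mat2al at 0.68, with a gene listed only by its clone name between rps27l and sesn3. The classes of a library share its depth and PZ 3 is 1 of the points. Within cells, the 10 genes with the highest mean log2 ratio between cells with 2 or more members and cells of the same class and library with none included sesn3 at 1.70, mat2al at 1.62 and rps27l at 0.88, and the same clone-named gene.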

How the data were processed

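Single-cell 3′ libraries of 16 pools of zebrafish tails were read from the deposited matrix of UMI counts, 1 integer per gene and cell, with no normalization by the authors in those values. Cell Ranger and the build GRCz11 are named by the submitters' processing notes, with no version or role. The percent of mitochondrial UMIs, the class and the cell cycle phase of each cell are the authors' deposited values. No source used here states the limits of an earlier cell filter or the handling of doublets. The deposited cells end at mitochondrial percents that differ between groups, as given above. The lowest number of genes in a cell, by library, was 801 to 1202 in WT and 1001 to 1016 under DMH1. It was 801 to 1501 under SU5402 and 501 to 503 under notum-1. Over all cells, a common filter of at most 3% mitochondrial UMIs and at least 1500 genes was run as an alternative. Beyond that, the part of such limits in the results was not tested. No doublet caller was run. Each library's group was taken from its name in the cell table, matched to the labels by treatment; 12 of the 16 names show a group but not which labelled sample, and the WNT libraries were taken as notum-1. Whether the 4 replicates of a group came from separate clutches is not given, so p-values measure the spread between these libraries.

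UMIs were summed per library, and per library and class, and tested with edgeR 4.0.16 in R 4.3.3 (filterByExpr, TMM factors, robust quasi-likelihood F test, 16 libraries and 4 groups, 12 residual degrees of freedom, adjusted p threshold 0.05). DESeq2 1.42.0 was an alternative. Single values were compared by exact permutation over libraries, written in Python 3.11.15 with numpy 2.4.6. For 4 against 4 libraries it has 70 assignments. Sparse matrices were handled with scipy 1.17.1. Figures used matplotlib 3.10.9. The fits were tested on simulated data. The members and gene lists were chosen with earlier results of these data known. Named were the 5 members, from each list up to 6 called genes per comparison, taken by adjusted p, the 5 genes most like the members across classes and the 10 most like them in cells; leading genes of PZ 3 and its marker levels were added after their values were seen, and 1 gene that this rule names is not reported here. No class is named somite, so the mesodermal contrast holds no such class. PZ 3 has 12 cells in SU1 and was fitted without it, a choice made after seeing the data. The alternatives were no TMM factors, DESeq2, no filter, 8 libraries per fit, thinning to the smallest total, a common cell filter, equal class weights, a replicate block, other pseudocounts, other thinning depths and leaving out each library. Sequences of the members are not shown here. Depth limits bbc3 and cdkn1a most, and intervals of counting error were not needed because libraries were the replicates.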

Additional observations from a re-analysis of the deposited data

Results flagged for a closer look

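In 12 of 68 groups of 4 libraries tested, 1 library stood apart from the other 3. The gap to its neighbour divided by the range of the group, the ratio given below, was above Dixon's 95% critical value. Chance gives about 1 in 20 such groups where they are independent. These groups share libraries and UMIs, and most of the 12 are WNT_DJ2, so their number cannot be set against that. Over all cells the ratio in notum-1 was 0.954 for ccng1 and 0.836 for phlda3, with WNT_DJ2 high in both. Without the cells of PZ 3 it was 0.951 for ccng1, 0.849 for cdkn1a and 0.844 for phlda3, again with WNT_DJ2 high. In the same cells it was 0.839 for ccng1 in DMH1, where DMH0 was low, 0.941 for bbc3 in WT, where MG1 was low, and 0.865 for bbc3 in DMH1, where DMH2 was low. Within PZ 3 it was 0.843 for mdm2 in notum-1, with WNT_DJ2 high, and 0.934 for bbc3 in SU5402, where SU1, with 12 PZ 3 cells, was high. The percent of cells with 2 or more members gave 0.844 in notum-1 and the percent with 3 or more gave 0.858, both with WNT_DJ2 high.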

How the results depend on the processing

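Over all cells, mdm2 kept its direction and its call under every alternative run in all 3 comparisons, as did cdkn1a and phlda3 in DMH1 and SU5402. The calls that changed were mostly those of notum-1. Without TMM factors ccng1 (-0.83), phlda3 (-1.34) and, in SU5402, bbc3 (0.87) passed, and ccng1 in SU5402 (-0.45) did not. The common cell filter ended the calls of ccng1 in DMH1 (-0.50) and bbc3 in notum-1 (-0.81) and brought in phlda3 in notum-1 (-1.19), and it left 3825 genes called in notum-1 against 6239. It keeps 44 cells in SU1 and no cell of many classes, so it was not run within classes. Thinning ended the notum-1 call of bbc3 (-0.81), and phlda3 in notum-1 passed without PZ 3 (-1.09). With the UMIs of each class scaled to the same total before summing, and an exact permutation test, ccng1 (-0.90), cdkn1a (-0.92) and phlda3 (-1.37) in notum-1 and bbc3 in SU5402 (0.72) reached the smallest p. The cause of these changes was not tested.

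The endings shared by WT and notum-1 libraries were not used as pairs in the main fits. Between libraries of the same ending, deviations from the group means correlated at 0.398, 0.104, -0.253 and 0.434. Not every library correlated best with its own ending. The labels name no shared batch, and these few correlations cannot decide whether the endings pair the libraries. With the ending as a replicate block, phlda3 passed (-1.15) and the pairs lower in notum-1 numbered 33, with no other call over all cells changed.

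Leaving out 1 library gave -0.78 to -0.30 for ccng1 in notum-1, 0.34 to 0.84 for bbc3 in SU5402, -0.92 to -0.72 for bbc3 in notum-1 and -1.56 to -0.71 for phlda3 in notum-1. Pairs of member and class called lower in notum-1 ranged from 16 to 41, and reached 50 without TMM factors. Thinning left 29 pairs lower in DMH1 and 29 in SU5402, and the cause was not tested. Pairs called higher ranged from 0 to 1 in DMH1 and from 1 to 2 in SU5402 over libraries left out, and were 0 in both after thinning. Without TMM factors, 4 of 10 regulators of p53 were lower in notum-1, and of the other p53 targets 1 was higher and 14 lower.

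The difference from WT in the percent of cells with 2 or more members moved with depth, in the order DMH1, SU5402 and notum-1. It was -2.17, -1.95 and -2.41 at 1000 UMIs, -9.49, -8.18 and -9.68 at 3000 UMIs, -0.678, -0.654 and -0.675 without ccng1, and -7.28 in DMH1 and -7.19 in SU5402 under the common filter. For 3 or more members it was -0.126, -0.133 and -0.170 at 1000 UMIs, -1.11, -0.915 and -1.14 at 3000, -0.0381, -0.0256 and -0.0303 without ccng1, and -1.17, -1.25 and -1.14 under the common filter.

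Values near 0, none past the threshold, changed sign. Without TMM factors these were, in notum-1, cdkn1a in PZ 1 (-0.23), epidermis 1 (-0.19), epidermis 3 (-0.19), epidermis 4 (-0.34) and PZ 3 (-0.24), and ccng1 in PZ 3 in DMH1 (0.0202) and SU5402 (0.0549). With DESeq2 they were cdkn1a in epidermis 4 (-0.0090) and bbc3 in PZ 3 (0.0746) in notum-1, the latter also with SU1 included (0.0087). Over libraries left out, notum-1 values ran from -0.018 to 0.42 for cdkn1a in PZ 1, -0.81 to 0.18 for mdm2 and -0.39 to 0.0021 for ccng1 in epidermis 1, -0.039 to 0.58 and -0.11 to 0.55 for cdkn1a in epidermis 1 and 3, and -0.40 to 0.062 for ccng1 in epidermis 4. In PZ 3 they ran from -0.43 to 0.14 for ccng1, -0.031 to 0.48 for cdkn1a and -0.22 to 0.19 for bbc3. In DMH1 they ran from -0.10 to 0.021 for ccng1 in PZ 3 and -0.081 to 0.32 for bbc3 in posterior neuronal cells. Of neuronal minus mesodermal contrasts in DMH1, mdm2 ran from -0.016 to 0.14 and phlda3 from -0.25 to 0.12. Of neuronal minus epidermal contrasts, the SU5402 values of bbc3 ran from -0.30 to 0.15 and the notum-1 values from -0.24 to 0.21, and a pseudocount of 5 gave 0.0353 and -0.0150.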
